A study of Caenorhabditis elegans with 2 samples.

Results

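The PAR polarity genes of Caenorhabditis elegans were taken as 9 genes, par-1 to par-6, pkc-3, cdc-42 and lgl-1, of 19973 protein-coding genes on the nuclear chromosomes. They were chosen by name as a pathway, with the positions and scores of their XND-1 peaks in these lists already known, so their values are given as a description with no test. XND-1 occupancy was measured by chromatin immunoprecipitation and sequencing (ChIP-seq) in 1 group of 2 biological replicates, with no second genotype, stage or treatment. The group was whole young adult hermaphrodites of strain QP0661, a transgenic line that stably makes XND-1 with a GFP-FLAG tag at its C-terminus, and the chromatin was sonicated. The submitters' description names an antibody against GFP for the pull-down, while their antibody label reads xnd-1, and which protein the antibody recognized is not settled by the labels. Worms had been synchronized as starved L1 larvae after bleaching and were collected 50 hours later. Tissues were not separated, so a peak cannot be assigned to the germ line or to the soma, and no list from untagged worms was used. XND-1 is a chromatin factor of the C. elegans germ line, known for its role in the distribution of meiotic crossovers and for its enrichment on autosomes.

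The PAR proteins set up the anterior-posterior axis of the C. elegans zygote. PAR-3, PAR-6 and the atypical protein kinase PKC-3, together with the small GTPase CDC-42, occupy the anterior cortex, while PAR-1, PAR-2 and LGL-1 occupy the posterior cortex, and each set keeps the other out. PAR-4, a kinase related to LKB1, and PAR-5, a 14-3-3 protein, are found throughout the cell. The mRNAs and proteins that start this system are loaded into the oocyte by the mother's germ line.

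The submitters thresholded a list by the irreproducible discovery rate (IDR), a measure of how well replicates rank the same peaks. In that list, peaks stood within 1500 bp upstream of 4 of the 9 genes. From 1500 bp upstream to 200 bp downstream of a 5′ end, 9.17% of all protein-coding genes had such a peak. Below are 101 bases at the summit, the highest point, of the highest peak at each of these 4 PAR genes. Values at other summits and at other genes follow as well. The bases are those of the RefSeq genome WBcel235 (ce11), printed 5′ to 3′ on the strand of the PAR gene. Capitals mark the words of 6 bases whose share of summit windows of the list most exceeded that of flanking windows, searched on both strands: the word GGCGCA, the word AGGCGC, the word GAGACC, the word ACCGTA and the word AAGGCG. The first, the second and the last of these overlap one another in AAGGCGCA, and TACGGT is ACCGTA read on the other strand. The windows are chrIII:5663652-5663752 (plus strand) for par-3, chrIV:11822601-11822701 (minus strand) for par-5, chrIII:1080772-1080872 (plus strand) for par-2 and chrII:5379711-5379811 (plus strand) for pkc-3. They are centred on the summit except at par-2, where the printed bases start at the summit because those before it are the 5′ untranslated region (UTR) of rab-18. The first 4 printed par-2 bases still lie in that UTR.
par-3: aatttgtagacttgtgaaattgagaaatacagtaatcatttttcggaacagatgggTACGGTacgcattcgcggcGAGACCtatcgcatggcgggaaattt
par-5: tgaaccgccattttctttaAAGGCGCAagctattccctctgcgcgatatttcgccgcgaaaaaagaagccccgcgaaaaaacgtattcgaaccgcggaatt
par-2: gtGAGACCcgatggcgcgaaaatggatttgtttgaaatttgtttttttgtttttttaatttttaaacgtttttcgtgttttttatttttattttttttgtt
pkc-3: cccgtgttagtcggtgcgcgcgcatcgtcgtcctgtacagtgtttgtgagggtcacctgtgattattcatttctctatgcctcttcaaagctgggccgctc

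The 4 peaks did not hold the same words. The par-3 window held ACCGTA and GAGACC, the centred par-2 window held GAGACC, the par-5 window held the 3 overlapping words as 1 run of letters, and the pkc-3 window held none of the 5. The words were chosen over 1839 summit windows of 101 bp, which left out the pkc-3 summit and a second summit of par-3 but held the printed par-3, par-5 and par-2 summits. Over these windows, GGCGCA stood in 20.7%, AGGCGC in 20.2%, GAGACC in 21.0%, ACCGTA in 19.03% and AAGGCG in 19.1%. In flanking windows 300 bp away the same words stood in 2.80%, 2.39%, 3.73%, 2.96% and 3.32%. In the 101 bp upstream of 19973 genes they stood in 1.55%, 1.29%, 2.34%, 2.44% and 2.52%. Windows with none of the words were the most frequent class, 991 of 1841 (53.8%). A further 413 (22.4%) held 1 word, 134 (7.28%) held 2, 113 (6.14%) held 3, 129 (7.01%) held 4 and 61 (3.31%) held 5. The centred windows had a G+C content of 42.6% at par-3, 48.5% at both par-5 and par-2 and 54.5% at pkc-3, against a mean of 41.8% at the 1839 summits and 36.1% in their flanks. A match is a run of letters only and does not show which protein bound there.

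In the IDR-thresholded list, 2 of the 9 PAR genes (22.2%), par-3 and pkc-3, had a summit in the promoter window, which runs over 500 bp before and 200 bp after each annotated 5′ end of a coding transcript. Over all protein-coding genes the same was true of 1334, which is 6.68%. When the window reached 1500 bp upstream, par-2 and par-5 joined them, giving 4 of 9 (44.4%), against 1832 genes or 9.17% of all. The other 5 genes, par-1, par-4, par-6, cdc-42 and lgl-1, had no such summit in either window. The list held 1841 peaks, with scores (the signalValue given by the authors' peak caller, of unstated scale) between 65.6 and 2548 and a median of 128. Ranks below run from the highest score.

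**Figure D1:**
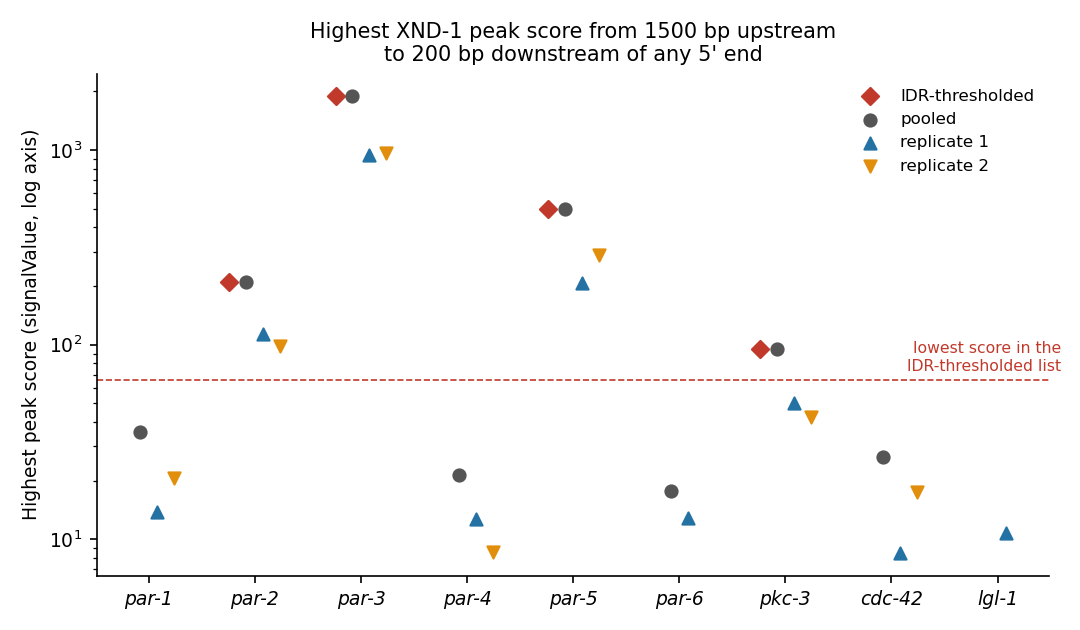
Highest peak score (signalValue, log axis) from 1500 bp upstream to 200 bp downstream of any 5′ end of each PAR gene, in the IDR-thresholded list, the pooled list and the lists of replicates 1 and 2; the dashed line is the lowest score of the IDR-thresholded list, 65.6, and applies to that list and the pooled list. Scores at par-3 (1888), par-5 (497), par-2 (209.5) and pkc-3 (95.4) stand above the line, and the other 5 genes have pooled scores of 35.6 or less or no pooled peak.

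Among the anterior genes, par-3 stood beside one of the highest peaks of the genome. It encodes a scaffold protein with PDZ domains and lies at chrIII:5664233-5676795 on the plus strand (WBGene00003918). The main summit, at chrIII:5663702, had a score of 1888 and ranked 7 of 1841. Replicate 1 had its summit at 5663713 with a score of 939, rank 4 of 22772 peaks, and replicate 2 at 5663699 with 961, rank 9 of 22364. Both replicates thus placed it among their highest peaks, with summits 14 bp apart. It lay 531 bp upstream of the outermost par-3 5′ end, just beyond the promoter window, in sequence with no annotated gene. The next protein-coding gene upstream, F54E7.6, points the other way and began 3147 bp from the par-3 5′ end.

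The promoter call at par-3 did not rest on that summit. It rested on a second summit in the same 622 bp peak interval, at chrIII:5663913, 320 bp upstream, with a score of 70.5 and rank 1706, near the lower edge of the list. No summit of either replicate lay within 100 bp of it. This was so, for 1 replicate or both, of 78 of the 1841 peaks, while 1763 (95.8%) had a summit of both. A separate summit of the pooled list, at an internal 5′ end used by shorter par-3 transcripts, scored 37.1 at 293 bp upstream of that end, below the IDR-thresholded list. There replicate 1 had 17.2 at 297 bp and replicate 2 had 17.5 at 212 bp.

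pkc-3 encodes the kinase of the anterior complex and lies at chrII:5380027-5384169 on the plus strand, with 1 coding transcript (WBGene00004034). Its summit, at chrII:5379761 and 266 bp upstream, scored 95.4 and ranked 1245 of 1841. Replicate 1 gave 50.0 at 260 bp, rank 1200, and replicate 2 gave 42.3 at 272 bp, rank 1500. It was the only one of the 4 highest peaks to lie inside the promoter window. The summit fell in an exon of the non-coding RNA gene F09E5.22 on the opposite strand, in the 395 bp between pkc-3 and prdx-2, which encodes a peroxiredoxin on the same strand. A higher peak, with a score of 386 (153.45 in replicate 1 and 234.98 in replicate 2), stood 460 bp upstream of prdx-2 and beyond the 1500 bp limit of pkc-3. Nearer to the pkc-3 5′ end, a pooled summit of 31.6 at 66 bp stayed below the IDR-thresholded list, with 22.8 at 25 bp in replicate 1 and 11.1 at 70 bp in replicate 2.

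The other anterior genes, cdc-42 and par-6, had only summits below the IDR-thresholded list in both windows. cdc-42 (chrII:7616452-7618245, plus strand, WBGene00000390) had a pooled summit of 26.4 at 789 bp upstream with a q-value of 0.195. Replicate 1 scored 8.51 at 779 bp and replicate 2 scored 17.5 at 796 bp, and a further pooled summit of 16.2 lay exactly 500 bp upstream, at the edge of the promoter window. par-6 (chrI:12669380-12674449, plus strand, WBGene00003921), which encodes a PDZ-domain adaptor that binds CDC-42 and PKC-3, had a pooled summit of 17.7, 95 bp downstream of an internal 5′ end, with a q-value of 0.697. Replicate 1 had 12.8 at 104 bp downstream and replicate 2 listed no summit there. Per the labels, the pooled and replicate lists hold background regions as well as peaks.

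**Figure D2:**
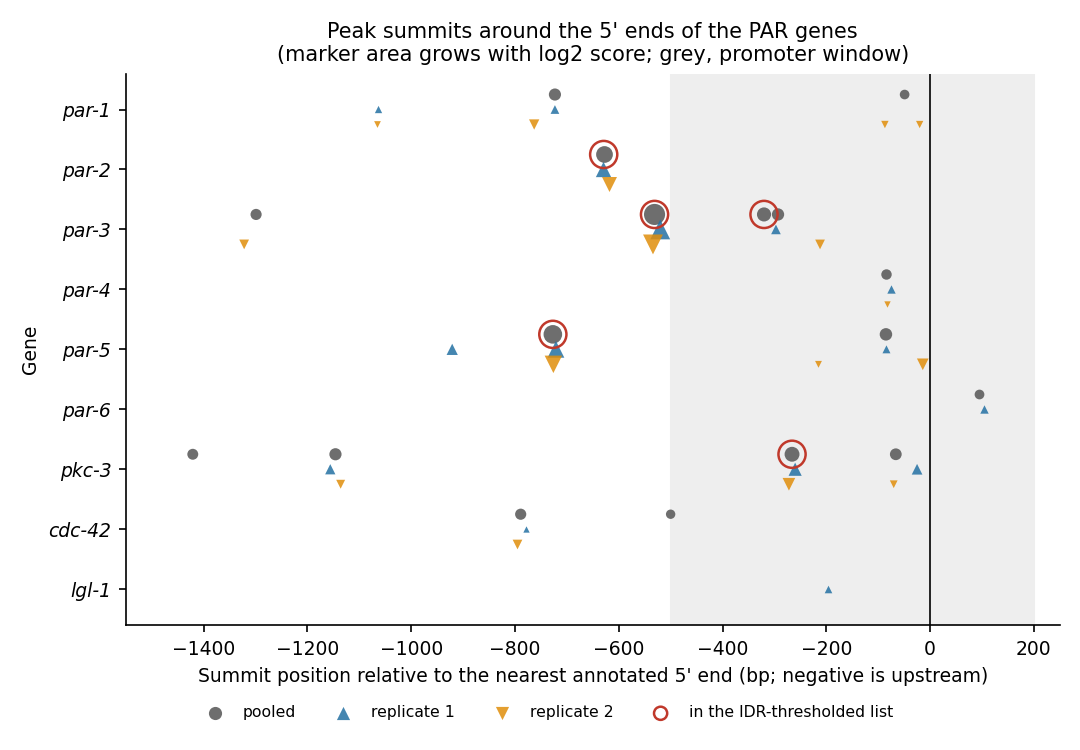
Position of every peak summit relative to the nearest annotated 5′ end (bp, negative upstream) for the 9 PAR genes, in the pooled list and in replicates 1 and 2; marker area grows with log2 score, rings mark the IDR-thresholded list and grey is the promoter window. The ringed summits of par-2, par-5 and the main one of par-3 lie 629, 727 and 531 bp upstream, outside the grey window, and that of pkc-3 lies inside it at 266 bp.

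Among the posterior genes, par-2 had a peak that it shared with a neighbouring pair of genes. par-2 encodes a RING-finger protein and lies at chrIII:1081401-1095082 on the plus strand (WBGene00003917). The summit, at chrIII:1080772, scored 209.5 and ranked 580 of 1841. Replicate 1 gave 113 at 631 bp upstream, rank 538, and replicate 2 gave 98.5 at 619 bp, rank 628. The summits of both replicates were 12 bp apart. It fell 3 bp inside the 5′ UTR of rab-18, a Rab GTPase gene on the opposite strand, and 129 bp upstream of kbp-4, a kinetochore gene on the same strand as par-2. kbp-4 ended 100 bp before par-2 began, so the peak was in the promoter windows of rab-18 and kbp-4 and not in that of par-2. Which of the 3 genes the occupancy belongs to cannot be told apart from position.

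par-1 and lgl-1 had no summit in the IDR-thresholded list. par-1 (chrV:14112033-14145367, minus strand, WBGene00003916), a serine/threonine kinase gene with 18 coding transcripts and 11 different 5′ ends, had its highest pooled summit, 35.6 with a q-value of 0.0167, 723 bp upstream of an internal 5′ end. Replicate 1 scored 13.8 at 723 bp and replicate 2 scored 20.5 at 763 bp. In the promoter windows par-1 had a pooled summit of 17.3 at 49 bp, with a q-value of 0.722. Replicate 2 had 10.4 and 10.2 there, and replicate 1 had none. lgl-1 (chrX:864097-871089, minus strand, WBGene00018987), the worm gene of the lethal giant larvae family, had 1 summit in 1 list, 10.8 at 197 bp upstream in replicate 1, and none in the pooled list or replicate 2. It was the only PAR gene on the X chromosome, where 10 of 2731 genes (0.366%) had an IDR-thresholded summit in the promoter window, against 11.2% of genes on chromosome III, 10.5% on I, 8.55% on II, 6.61% on IV and 4.31% on V.

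Of the genes whose proteins are found throughout the cell, par-5 had a strong peak and par-4 did not. par-5 lies at chrIV:11820506-11821924 on the minus strand (WBGene00003920). The summit at chrIV:11822651 scored 497 and ranked 203 of 1841, 727 bp upstream of the nearest par-5 5′ end. Replicate 1 gave 208 at 721 bp, rank 260, and replicate 2 gave 287 at 726 bp, rank 174. The replicate summits were 5 bp apart. The summit lay in an intron of M117.3, which points the other way, 445 bp downstream of its 5′ end, so M117.3 was the protein-coding gene with the nearest 5′ end.

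A second peak of the IDR-thresholded list lay in the 3′ UTR of par-5, at chrIV:11820551 and 45 bp from the 3′ end of the gene. It scored 96.1 and ranked 1234, and the nearest 5′ end of a coding transcript was that of par-5, 867 bp away. Replicate 1 had 40.6 and replicate 2 had 49.9 there, with summits at 11820627 and 11820531. Replicate 1 also had a higher summit, 50.9, past the 3′ end of the gene. A summit of the IDR-thresholded list inside the gene and outside its promoter windows was found in 1 of the 9 genes, par-5, and in 314 of all genes, which is 1.57%. A weaker pooled summit stood in the par-5 promoter window, 39.7 at 85 bp upstream of an internal 5′ end, with a q-value of 0.00541. The replicates differed there, with 11.7 at 84 bp in replicate 1 and 30.9 at 14 bp in replicate 2.

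par-4 (chrV:18098687-18106405, plus strand, WBGene00003919) had a pooled summit of 21.3, 84 bp upstream of an internal 5′ end, with a q-value of 0.471. Replicate 1 scored 12.7 at 76 bp and replicate 2 scored 8.57 at 82 bp. The q-values were 0.396 in replicate 1 and 0.935 in replicate 2, where the summit ranked 21305 of 22364. The positions were nearly the same in all 3 lists, but the pooled list is made from both replicates. The pooled summit scored below the IDR-thresholded list.

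Inside the gene and outside the promoter windows, 6 of the 9 PAR genes had a summit in the pooled list before thresholding, as did 37.7% of all genes. par-3 held 12, the highest at 32.3, and par-1 held 7, the highest at 35.6. par-2, cdc-42 and pkc-3 held 2 each, with 18.3, 24.3 and 15.1 as their highest. par-5 also held 2, the 3′ UTR peak of 96.1 and one of 64.35, just under the lowest score of the IDR-thresholded list. par-4, par-6 and lgl-1 had none. Gene lengths differ, and the counts were not divided by them.

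**Figure D3:**
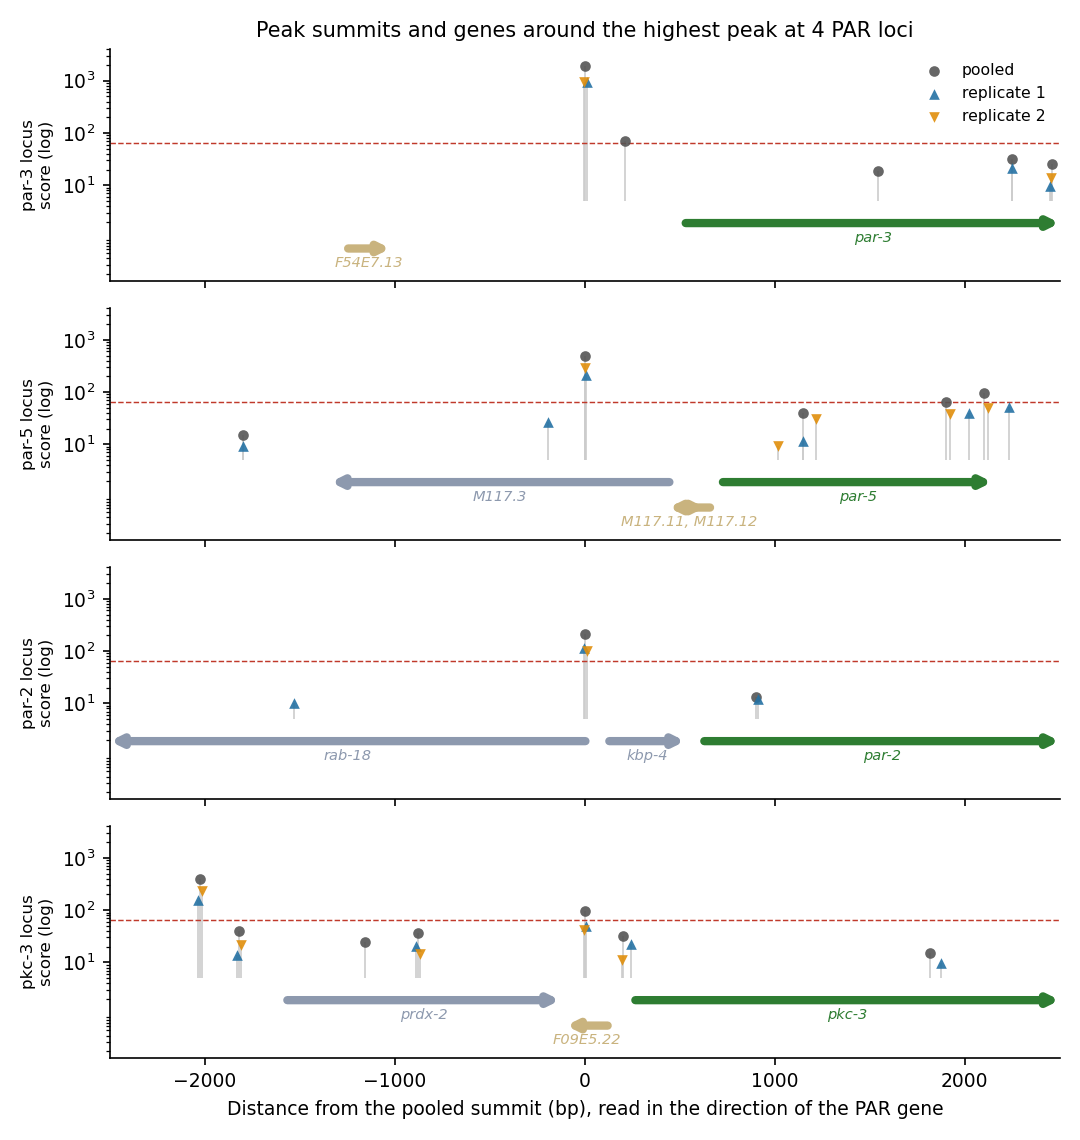
Peak summits and gene models around the highest peak of par-3, par-5, par-2 and pkc-3; the horizontal axis is the distance from the pooled summit in bp, read in the direction of the PAR gene, and the vertical axis the score (log axis) of pooled and replicate summits, with the lowest IDR-thresholded score, 65.6, dashed. Green arrows are PAR genes, blue-grey arrows other protein-coding genes and tan arrows non-coding RNA genes, cut at the panel edges; no gene covers the par-3 summit, while those of par-5, par-2 and pkc-3 lie in M117.3, rab-18 and F09E5.22.

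In 3 of the 4 PAR genes with a summit within 1500 bp, par-2, par-3 and par-5, the highest one lay beyond 500 bp upstream. Over all 1832 genes with such a summit this was so of 536 (29.3%). Counting the nearest summit instead, it lay beyond 500 bp in 2 of the 4 PAR genes, par-2 and par-5, and in 498 (27.2%) of the 1832 genes. Of all 1841 summits, 1122 lay in the promoter window of at least 1 gene, 260 (14.1%) lay only in the 500 to 1500 bp stretch, and 459 lay in neither. The 7 peaks that scored as high as the par-3 peak or higher, that peak included, were not all at promoters either, as 4 of them lay in no promoter window.

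The lists before thresholding gave more PAR genes a summit in the promoter window, and more of all genes too. The pooled list, with 24467 entries, gave 7 of the 9 PAR genes, leaving out par-2 and lgl-1, and 27.7% of all genes. Of these PAR genes, par-1, par-4, par-5 and par-6 had promoter summits at internal 5′ ends only. The q-values were 0.722 at par-1, 0.471 at par-4, 0.697 at par-6 and 0.79 at cdc-42. A gene with more 5′ ends has more windows, and the shares were not adjusted for this. Replicate 1 gave 6, namely par-3, par-4, par-5, par-6, pkc-3 and lgl-1, with 27.3% of all genes. Replicate 2 gave 5, namely par-1, par-3, par-4, par-5 and pkc-3, with 25.6% of all genes. par-3, par-4, par-5 and pkc-3 were on all 3 of these lists. When each replicate was cut to its 1841 highest peaks, pkc-3 alone of the PAR genes had a summit in the promoter window, in replicate 1 (6.67% of all genes) and in replicate 2 (6.37% of all genes).

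The replicates gave similar scores at the 4 highest PAR peaks. The score in replicate 1 over that in replicate 2 was 0.977 at par-3, 0.724 at par-5, 1.15 at par-2 and 1.18 at pkc-3. All 4 ratios lay inside the range from the 5th to the 95th percentile over the 1763 peaks with a summit of both replicates, 0.556 to 1.65, whose median was 0.969. The list was thresholded on agreement between replicates and the 4 peaks are among the 1763, so a place inside the range was likely beforehand. Weaker pooled summits with a summit of both replicates gave 0.378 at the internal par-5 5′ end, 0.487 at cdc-42, 0.671 at par-1, 0.981 at the internal par-3 5′ end and 1.48 at par-4. At pkc-3 they gave 2.06 at 66 bp and 1.40 at 1146 bp. The range above is of IDR-thresholded peaks only and is no measure for these weaker summits. The lower edge of the IDR-thresholded list was sharp in the pooled score, with its lowest peak at 65.63 and the next pooled peak at 65.61. Closest above this edge among the PAR summits was the second one of par-3, at 70.5, and closest below it in the windows was that of par-5, at 39.7.

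**Figure D4:**
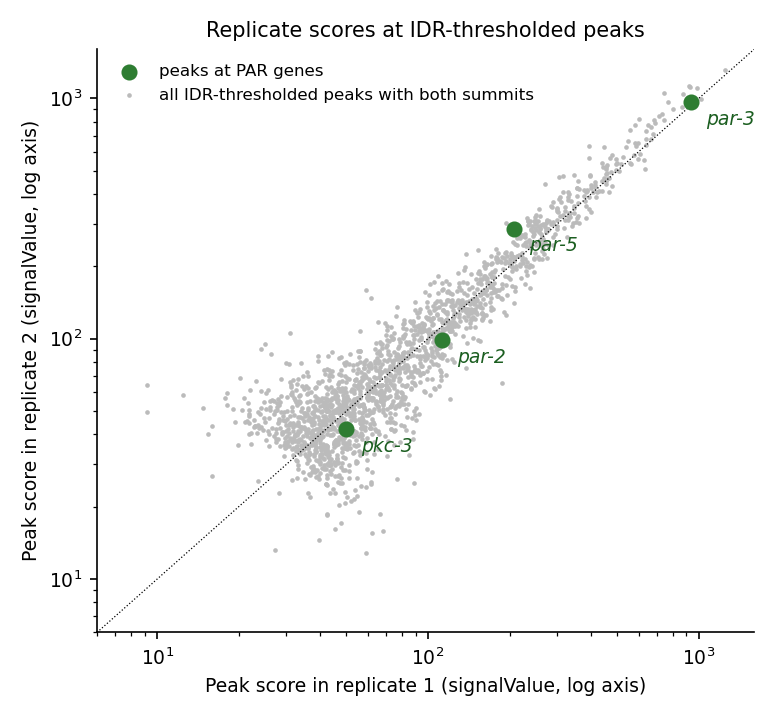
Score in replicate 1 (horizontal) against score in replicate 2 (vertical), both log axes, for IDR-thresholded peaks with a summit of both replicates within 100 bp; green points are the highest peaks at par-2, par-3, par-5 and pkc-3 and the dotted line marks equal scores. The 4 PAR peaks lie within the cloud of the 1763 peaks, with ratios between 0.724 and 1.18.

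Genes next to the PAR genes in the pathway were counted the same way, in 6 lists drawn up with earlier results of these data known. The close relatives of the PAR genes had no IDR-thresholded summit in the promoter window in any of 15 (6.68% of all genes), nor up to 1500 bp upstream (9.17% of all genes), and 6 of the 15 lie on the X chromosome. In the pooled list before thresholding, the kinase genes pig-1 and kin-29 had promoter summits of 55.5 and 48.1. aak-1 had 31.2, the Rac gene ced-10 had 26.7, pkc-1 had 21.8, the 14-3-3 gene ftt-2 had 19.2 and crp-1 had 19.1. No pooled promoter summit was listed for pkc-2, tpa-1, sad-1, aak-2, rac-2, mig-2 and tom-1.

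Direct regulators and partners of the PAR proteins had a summit in the promoter window in 7 of 17 genes (41.2%, against 6.68% of all genes). Within 1500 bp upstream there was one in 10 (58.8%, against 9.17% of all genes), and 1 of the 17 lies on the X chromosome. The highest was rga-3, a GTPase-activating protein gene, with a score of 938 at 445 bp upstream (455 in replicate 1 and 485 in replicate 2). plk-1, the polo-like kinase, had 349 at 197 bp (187 in replicate 1 and 162 in replicate 2). hsp-90, a chaperone, had 266 at 400 bp (126 in replicate 1 and 138 in replicate 2). nop-1, which promotes cortical contractility in the zygote, had 260.4 at 8 bp downstream (118 in replicate 1 and 143 in replicate 2). The median score of the 7 genes was 260.4, against 145 over the 1334 genes.

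The list of genes linked to cytoplasmic asymmetry downstream of the PAR proteins had the largest share of the 6 lists. It had a summit in the promoter window in 11 of 18 genes (61.1%) and within 1500 bp upstream in 12 (66.7%). Over all genes these shares were 6.68% and 9.17%. The median score in the promoter window was 640, and 4 of the 18 genes lie on the X chromosome. All named here encode RNA-binding or zinc-finger proteins of the oocyte and early embryo. mex-1 had 1737 at 192 bp (773 in replicate 1 and 968 in replicate 2). spn-4 had 828 at 167 bp (345 in replicate 1 and 479 in replicate 2), oma-1 had 786 at 287 bp (376 in replicate 1 and 414 in replicate 2), and pie-1 had 690.4 at 138 bp (358 in replicate 1 and 324 in replicate 2). Of the PAR genes, par-3 alone had a peak above all of these, further from its 5′ end.

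Spindle positioning genes, which act downstream of the PAR domains on the mitotic spindle, had a promoter summit in 5 of 18 (27.8%). A summit within 1500 bp was found in 7 (38.9%), and over all genes these shares were 6.68% and 9.17%. The median promoter score was 553, and 1 of the 18 genes lies on the X chromosome. lin-5, which links cortical cues to dynein, had 781 at 249 bp (305 in replicate 1 and 472 in replicate 2). gpr-2 had 557 at 295 bp (251 in replicate 1 and 304 in replicate 2), let-99 had 553 at 246 bp (273 in replicate 1 and 278 in replicate 2), and tac-1 had 433 at 232 bp (243 in replicate 1 and 200.3 in replicate 2). gpr-2 has a near-identical copy, gpr-1, whose own promoter summit scored 219, and how reads common to both were placed is not given in the sources used here.

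Actomyosin genes of the cortex had a promoter summit in 4 of 17 (23.5%) and one within 1500 bp in 6 (35.3%). Over all genes these shares were 6.68% and 9.17%. The median promoter score was 281, and 0 of the 17 genes lie on the X chromosome. ani-2 and ani-1, anillin genes, had 538 at 55 bp (248 in replicate 1 and 288 in replicate 2) and 237 at 160 bp (106 in replicate 1 and 132 in replicate 2). cap-2, an actin capping protein gene, had 324 at 224 bp (163 in replicate 1 and 159 in replicate 2), and zen-4, a kinesin gene of cytokinesis, had 199 at 296 bp (101 in replicate 1 and 102 in replicate 2). Epithelial polarity and junction genes had a promoter summit in 2 of 15 (13.3%, against 6.68% of all genes). A summit within 1500 bp was found in 4 (26.7%, against 9.17% of all genes). The median promoter score was 82.7, and 5 of the 15 genes lie on the X chromosome. Of the 2 genes with a promoter summit, lin-7 had 89.99 at 303 bp (37.6 in replicate 1 and 49.3 in replicate 2). The other was hmp-1, the alpha-catenin gene, with 75.4 at 208 bp (46.4 in replicate 1 and 30.5 in replicate 2). The scores of lin-7 and hmp-1 were in the range of the 2 PAR promoter summits, 70.5 and 95.4.

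**Figure D5:**
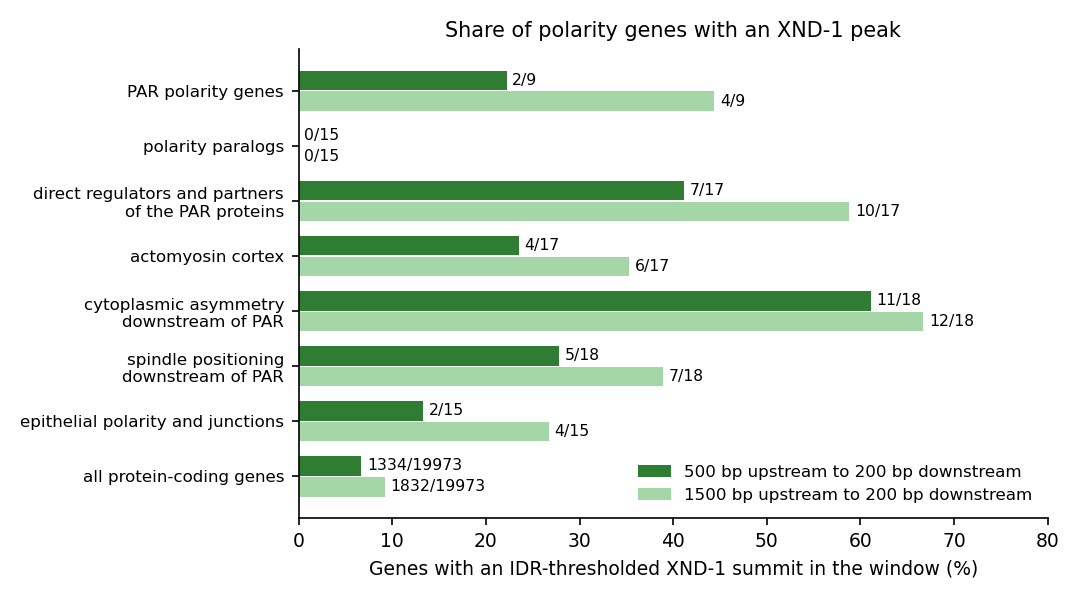
Percent of genes with an IDR-thresholded summit from 500 bp (dark) or 1500 bp (light) upstream to 200 bp downstream of a 5′ end, for the PAR genes, 6 lists of related genes and all protein-coding genes, with the counts beside each bar. The PAR genes stand at 22.2% and 44.4%, their close relatives at 0 and all genes at 6.68% and 9.17%.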

How the data were processed

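Peak lists on ce11 were used: 1 per replicate, 1 from both replicates pooled and 1 thresholded by IDR, all made by the authors. Per the labels and the text notes deposited with the files, replicate and pooled lists hold peaks and background and were called against a control alignment. Aligner, peak caller and IDR cut-off are not given in the sources used here. Each peak's score is the deposited signalValue, of unstated scale, used as the authors' own value; its q-value is from the deposited −log10 q. Read depth per replicate is unknown, so no counting interval is given. Lists on ce10 were not used.

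Summits (deposited start plus offset) were placed relative to 5′ ends of protein-coding transcripts in Ensembl release 115 (WBcel235), and bases were read from the RefSeq genome. Replicate summits within 100 bp were matched. Words of 6 bases were ranked by their share of windows 50 bp each side of summits over flanks 300 bp away; all 5 printed are the top ranks. Genes named were the PAR genes, genes with the same summit in their promoter window, the close relatives (1 is not reported here by name), up to 4 highest per list and the genes next in score; neighbours at the loci and gpr-1 were added after their values were seen. Members and lists were chosen with earlier results of these data known, and no test was run. Window, threshold, overlap, 5′ end set and each replicate were varied. Python 3.11.15, numpy 2.4.6 and pandas 2.3.3 were used, and the code was tested on simulated data.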

Additional observations from a re-analysis of the deposited data

How the results depend on the processing

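With a window of 200 bp upstream to 100 bp downstream, 0 PAR genes had a summit, against 3.29% of all genes, and the lists gave 2 actomyosin, 4 cytoplasmic asymmetry, 3 regulator, 0 epithelial and 1 spindle gene. With 1000 bp upstream to 500 bp downstream, and with 1500 bp upstream to 200 bp downstream, there were 4 PAR genes, against 8.50% and 9.17% of all genes, and 1500 bp gave 4 epithelial genes. The higher scoring 921 peaks gave 0 PAR genes, 0 epithelial genes and 3.70% of all genes. The highest 3682 pooled peaks gave 10.6% of all genes, 3 PAR genes and 2 close relatives. Leaving out either replicate left 1 PAR gene, pkc-3, with 6.37% to 6.67% of all genes, and 1 to 2 epithelial genes. Any overlap of the peak with the window gave 3 PAR genes and 7.59% of all genes, and the outermost 5′ end alone gave 2 and 6.25%. Whole lists, an alternative added after seeing the data, gave 6 PAR genes and 27.3% of all genes in replicate 1, 5 and 25.6% in replicate 2, and 7 and 27.7% pooled. The promoter count of the PAR genes thus depends on window and list. No paired analysis was possible because there is 1 group. With 2 replicates and no read counts, no error of a score can be given, and with whole worms and a tagged transgenic protein, the cells behind a peak were not tested.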

Other observations

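The genes next to par-3 in promoter score, at 70.5, were Y73B3A.20 above it and F35C8.8 below it, both on the X chromosome and with 70.53 and 70.51. Those next to pkc-3, at 95.4, were rsp-7 and snu-13 above it, which share 1 summit at 95.5, and Y17G9B.8 below it at 95.04. Among 1334 genes, par-3 ranked 1264 and pkc-3 ranked 960 by this score.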
